A study of Mus musculus with 10 samples.

Results

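The genes described here form the machinery that macrophages use to reshape actin and to engulf particles. The list named 41 genes, and 39 of them were measured, out of 19938 genes tested in all. Each gene was read from the probe set annotated to that symbol alone, and where a gene had several such probe sets the one with the highest mean over the 10 arrays was taken. Arpc3 and Actr2, an Arp2/3 subunit and the actin-related protein Arp2, had no probe set named for them and were not analysed here.

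Gene expression was measured by the study with Affymetrix arrays in mouse macrophages, and 4 groups were compared. They were TLR9KO macrophages given β-1,3 glucan beads (2 arrays), unstimulated TLR9KO macrophages (2 arrays), wild-type B6 macrophages given the beads (3 arrays) and unstimulated wild-type B6 macrophages (3 arrays). The bead groups received 20 beads per cell for 4 h, and the cells of all groups were immortalized. The TLR9KO macrophages lack Toll-like receptor 9, an endosomal sensor of DNA. Each genotype was represented by 1 named line, so line and genotype cannot be told apart. How the lines were made, and whether each is 1 clone, is not given. Whether replicate arrays stem from separate cultures is not labelled, and the p-values then measure only the spread between these arrays.

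A macrophage takes in a β-glucan particle by pushing an actin-rich cup around it, as is known for the β-glucan receptor Dectin-1. Nucleation-promoting factors make the Arp2/3 complex start branched actin filaments. Formins and Ena/VASP proteins lengthen filaments, capping, severing and monomer-binding proteins turn them over, and linkers tie them to the membrane, to myosins and to sites of adhesion.

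Values are log2 signals per probe set, and differences are on the same log2 scale, each with its standard error (SE) from limma's fit. A gene was called higher or lower where limma's Benjamini-Hochberg adjusted p, over all 19938 genes, was under 0.05. Levels of different probe sets are set against each other only to place a gene by its signal. This was done with percentiles of an array, the range of marker genes, or other genes of like signal. In bulk RNA, fewer cells of a type and less RNA per cell cannot be told apart.

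The labelled cell type was checked against marker genes. Of 12 macrophage markers, 11 lay above the 75th percentile of all probe sets on every array, and the exception was Mertk. None of the markers of dendritic cells (8 genes), fibroblasts and stroma (10 genes), granulocytes (10 genes) or lymphocytes (7 genes) did so. The mean of the macrophage markers was 10.66 to 10.86 in TLR9KO macrophages with beads, 10.79 to 10.95 in unstimulated TLR9KO macrophages, 10.08 to 10.64 in wild-type macrophages with beads and 10.40 to 10.45 in unstimulated wild-type macrophages. The markers did not all move together. In unstimulated macrophages Mertk (6.30 in TLR9KO against 7.80 in wild type), Laptm5 (12.35 against 12.49) and Cd68 (12.54 against 12.57) were lower with TLR9KO. The other macrophage markers were higher, Cd14 most (10.45 against 7.98) and Lyz2 least (12.59 against 12.57). The mean of these markers moved the same way as most of the differences between lines below, and its part in them was not tested. The Tlr9 probe set read 7.44 and 7.62 in unstimulated TLR9KO macrophages, against 7.32, 6.91 and 7.25 in unstimulated wild-type macrophages. Whether that probe set covers deleted sequence is not given, so it does not check the labels.

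One array stood apart. Array 3 of the wild-type bead group had a mean correlation across genes of 0.973 with the other arrays of its group, against 0.985 to 0.997 for the other arrays. Its values spread less over genes, with an SD of 1.75 against 1.86 to 2.00 on the other arrays. On it, 35 of the 39 members lay below the mean of wild-type bead arrays 1 and 2, with a median of -0.29. The 1658 other genes of like signal had a median of -0.36, and all genes one of 0.08. Rhog (-1.12), Myo1e (-0.94) and Coro1a (-0.84) lay farthest below, and Evl (0.95) and Vasp (0.48) farthest above. Differences that this array moved by over 1.5 times, or whose sign or call it turned, are given with and without it.

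**Figure D1:**
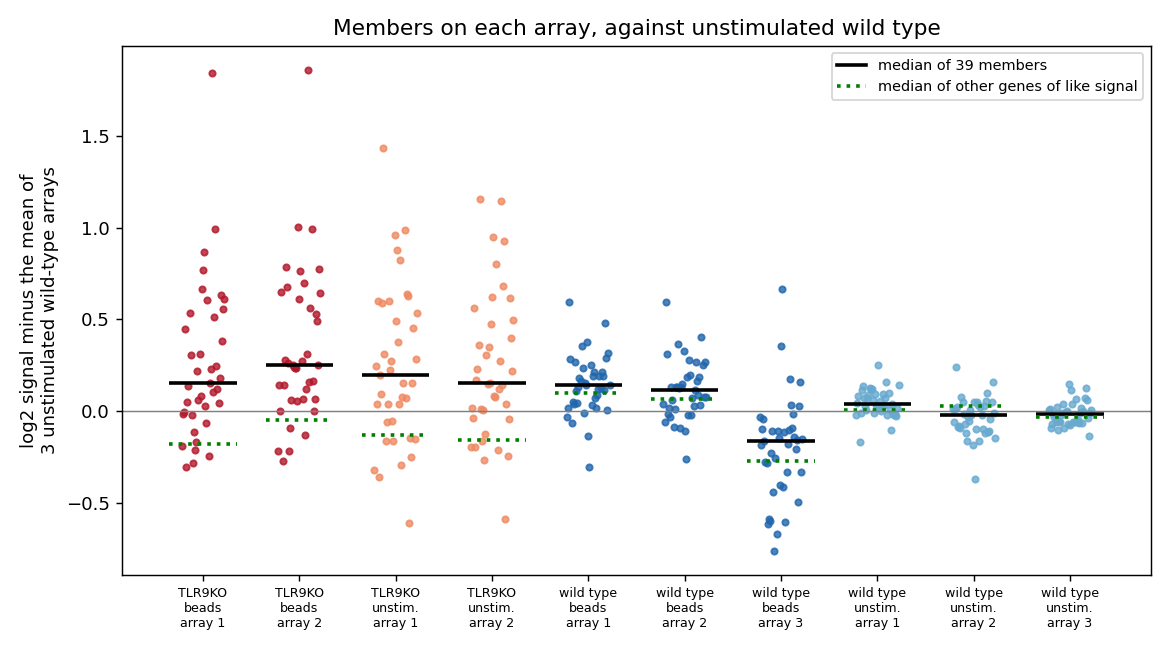
Log2 signal of each of the 39 measured members on each array minus its mean over the unstimulated wild-type arrays, with 1 coloured point per gene, a black bar at the members' median and a green dotted bar at the median of other genes of like signal. The members' median is -0.16 on array 3 of the wild-type bead group and lies between -0.02 and 0.25 on the other 9 arrays.

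Promoter sequences are shown for 4 members. Iqgap1, Vasp and Vim were called higher in TLR9KO macrophages with beads, and Vcl is one of few members with a CArG box, the binding motif of serum response factor, a known regulator of actin genes. The sequences are from RefSeq, build GRCm38.p6, and run 5′ to 3′ on the gene's strand from 250 bases before to 50 bases after the start of 1 annotated transcript. For Iqgap1 that start lies 12218 bases, and for Vcl 15 bases, inside the annotated span of the gene. They lie at chr7:80803282-80803581 on the minus strand (Iqgap1), chr7:19271805-19272104 on the minus strand (Vasp), chr2:13574061-13574360 on the plus strand (Vim) and chr14:20929148-20929447 on the plus strand (Vcl). Capitals mark the motif matches.
Iqgap1: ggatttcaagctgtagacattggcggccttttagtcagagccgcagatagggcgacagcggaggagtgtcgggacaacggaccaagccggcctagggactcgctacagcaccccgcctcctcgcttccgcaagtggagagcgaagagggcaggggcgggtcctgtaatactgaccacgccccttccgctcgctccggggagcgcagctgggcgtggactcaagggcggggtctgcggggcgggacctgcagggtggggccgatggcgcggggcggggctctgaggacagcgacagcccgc
Vasp: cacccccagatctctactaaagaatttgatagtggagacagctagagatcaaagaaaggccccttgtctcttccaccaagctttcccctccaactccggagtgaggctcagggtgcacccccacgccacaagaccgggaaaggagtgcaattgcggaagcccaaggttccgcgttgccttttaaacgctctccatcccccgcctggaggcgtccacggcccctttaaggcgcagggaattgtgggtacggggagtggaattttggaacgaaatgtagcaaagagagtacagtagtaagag
Vim: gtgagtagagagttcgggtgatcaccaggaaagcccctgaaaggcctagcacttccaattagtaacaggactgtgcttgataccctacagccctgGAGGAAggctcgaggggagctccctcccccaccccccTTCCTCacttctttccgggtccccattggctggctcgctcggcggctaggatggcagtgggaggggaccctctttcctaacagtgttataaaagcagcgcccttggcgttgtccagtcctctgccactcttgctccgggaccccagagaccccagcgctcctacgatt
Vcl: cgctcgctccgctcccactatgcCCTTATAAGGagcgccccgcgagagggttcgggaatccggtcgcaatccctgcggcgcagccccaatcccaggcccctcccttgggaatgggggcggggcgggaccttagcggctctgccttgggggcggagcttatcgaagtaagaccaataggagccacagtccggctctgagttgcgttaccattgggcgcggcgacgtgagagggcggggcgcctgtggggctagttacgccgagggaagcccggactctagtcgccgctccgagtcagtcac
The motifs searched on both strands were the CArG box, the PU.1 core GAGGAA and the interferon-response repeat of GAAA, NN and GAAA in a row, where matches of different motifs may overlap. The table held 44 promoters for 34 of the 39 measured members, since some members had several, and Carmil1 had no entry. A CArG box stood in 3 of the 44 member promoters (those of Arpc4, Myo1e and Vcl), against 1.63% of all 32851 promoters. GAGGAA stood in 14 of the 44, each of a different member, against 28.3% of all promoters. Vim has GAGGAA on both strands, as printed. The GAAA repeat stood in 1 of the 44, that of Wipf1, against 3.44% of all promoters. The printed Iqgap1 and Vasp windows hold none of these letters, which says nothing about the factors themselves.

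Without beads, the members that differed between the lines were mostly higher in the TLR9KO macrophages. Of 39 members, 7 were called higher and 1 lower by limma, where 8.25% of all genes were called (3.79% higher and 4.46% lower). The higher genes were Cyria, Carmil1, Iqgap1, Lsp1, Arpc5, Myo1f and Vim, and the lower one was Rai14. When only the 9969 genes above the median signal were tested, which include all 39 members, 10 members and 16.9% of those genes were called. The median difference over the members was 0.16, against 0.02 over all genes tested. The TLR9KO arrays lay wholly above the wild-type arrays for 20 members and wholly below for 6, where 17.7% and 21.1% of all genes did so. The count of called members depended on single arrays: it was 2 without unstimulated TLR9KO array 1 (3.42% of all genes called), 3 without unstimulated TLR9KO array 2 (3.68%), 4 without unstimulated wild-type array 3 (4.96%) and 15 without wild-type bead array 3 (18.4%).

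With beads, 4 members were called higher in TLR9KO macrophages and none lower by limma, where 7.22% of all genes were called (3.82% higher and 3.4% lower). They were Carmil1, Iqgap1, Vasp and Vim. Among the genes above the median signal, tested alone, the same 4 members and 13.8% of genes were called. The median difference was 0.21 over the members, against -0.01 over all genes, and 0.11 over the members, against 0.05 over all genes, when wild-type bead array 3 was left out. The TLR9KO arrays lay wholly above for 19 members and wholly below for 2 (Arpc1b and Actr3), where 11.3% and 12.3% of all genes did so. Without TLR9KO bead array 1, or without TLR9KO bead array 2, 2 members were called, where 3.48% and 2.99% of all genes were. Without wild-type bead array 3, 12 were called, 9 higher and 3 lower, where 20.9% of all genes were called.

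Carmil1, Iqgap1 and Vim were called in both comparisons between lines, 9 members in either, and 30 in neither. The lines were compared with and without beads on different arrays, but 1 fit over all 10 arrays gives both their spread.

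**Figure D2:**
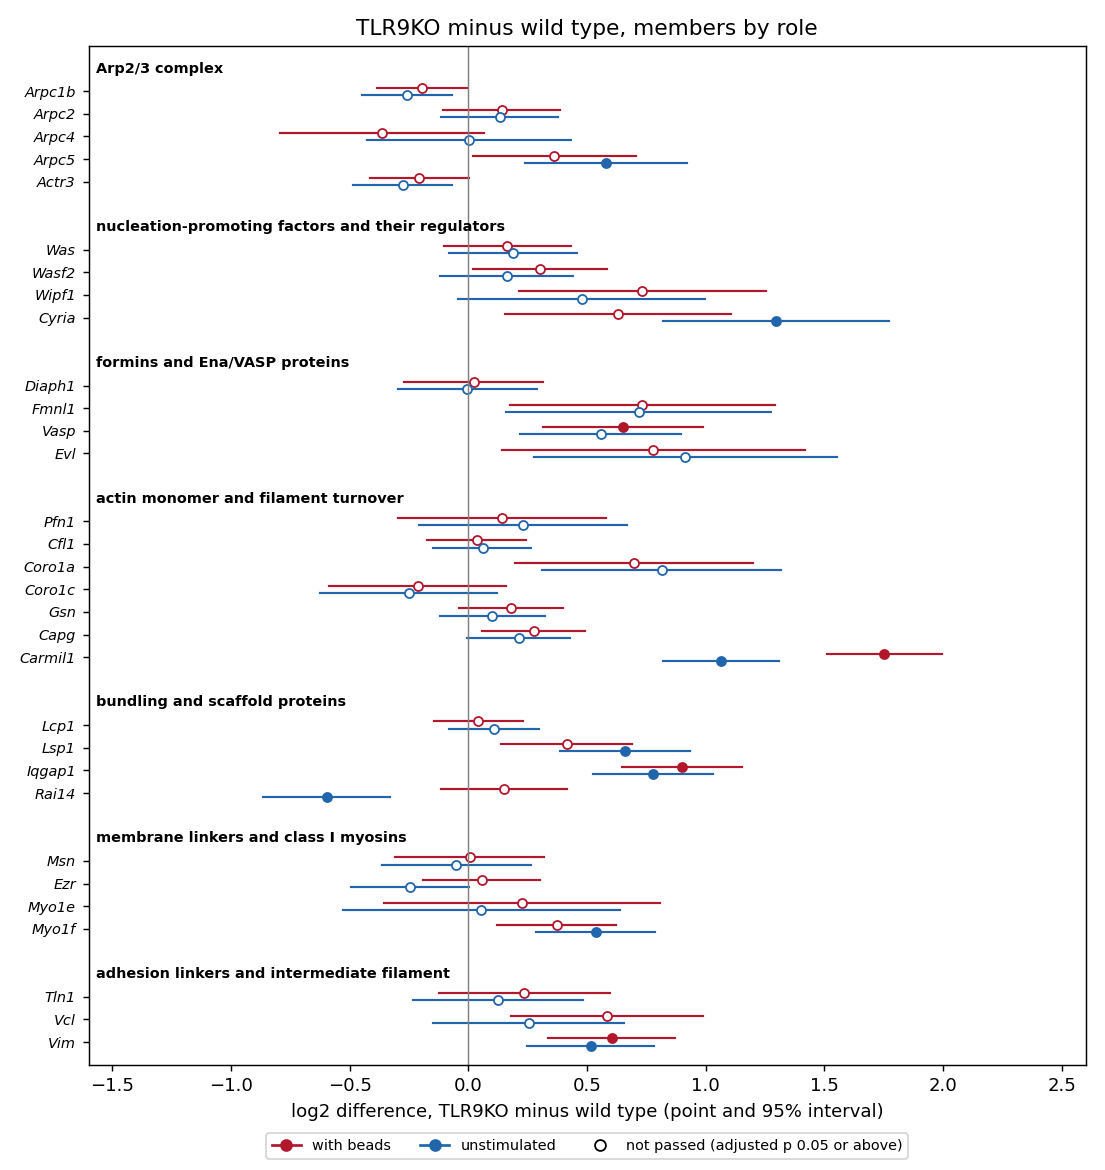
Difference in log2 signal, TLR9KO minus wild type, for the members described by role, with beads in red and unstimulated in blue; bars are 95% intervals and filled points passed the adjusted p of 0.05. Most points lie right of 0, Carmil1 lies farthest right with beads (1.75), and Rai14 lies left of 0 without beads (-0.60).

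Among subunits of the Arp2/3 complex, which nucleates branched filaments, Arpc5 was the member called. It read 10.63 and 10.59 in unstimulated TLR9KO macrophages, against 9.86, 10.27 and 9.96 in unstimulated wild-type macrophages. With beads it read 10.48 and 10.68 in TLR9KO macrophages, against 10.31, 10.34 and 9.99 in wild-type macrophages. The TLR9KO arrays lay above the wild-type arrays in both comparisons. Without beads the difference was 0.58 ± 0.15 (SE, adjusted p = 0.0482), and with beads it was 0.36 ± 0.15 and did not pass (adjusted p = 0.269). The call without beads was lost when any of 8 arrays was left out, all but wild-type bead array 3 and unstimulated wild-type array 2, with an adjusted p of 0.0616 to 0.26.

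The other Arp2/3 members did not follow Arpc5. Arpc1b, a subunit of the complex in blood cells, read 12.19 and 12.32 in unstimulated TLR9KO macrophages, against 12.49, 12.52 and 12.52 in unstimulated wild-type macrophages. Actr3, the actin-related protein Arp3, read 10.28 and 10.45 in unstimulated TLR9KO macrophages, against 10.63, 10.67 and 10.63 in unstimulated wild-type macrophages. Both lay lower in TLR9KO macrophages on every array, but the differences of -0.26 ± 0.09 (SE) and -0.28 ± 0.09 (SE) did not pass (adjusted p = 0.115 and 0.118). Both passed once wild-type bead array 3 was left out (adjusted p = 0.0396 and 0.0325). The subunits Arpc2 and Arpc4 differed by 0.13 ± 0.11 (SE) and 0.003 ± 0.19 (SE) without beads, and neither passed. With beads Arpc4 differed by -0.36 ± 0.19 (SE, adjusted p = 0.444), and by -0.59 without wild-type bead array 3 (adjusted p = 0.000898), where the other bead arrays of wild-type macrophages both read 10.01 and array 3 read 9.32.

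Among nucleation-promoting factors and their regulators, Cyria was called. It encodes CYRI-A, which binds active Rac1 and restrains the WAVE complex. Cyria read 8.68 and 8.40 in unstimulated TLR9KO macrophages, against 7.27, 7.32 and 7.14 in unstimulated wild-type macrophages. With beads it read 7.55 and 7.92 in TLR9KO macrophages, against 7.35, 7.30 and 6.66 in wild-type macrophages. The unstimulated TLR9KO arrays were the highest of all 10. Without beads the difference was 1.30 ± 0.21 (SE, adjusted p = 0.0049), the highest among the members. With beads it was 0.63 ± 0.21 (SE) and did not pass (adjusted p = 0.135), and it was 0.41 when wild-type bead array 3 was left out (adjusted p = 0.058). The call without beads was lost without unstimulated TLR9KO array 1 (adjusted p = 0.0695). The wild-type Cyria values lie in the range of the 35 markers of other cell types over all 10 arrays, 3.81 to 7.54. The top of that range is Col1a2 on wild-type bead array 3. On the other wild-type arrays Cyria lay above each of these markers, the highest of which was Itgax at 7.01 on bead array 1. The wild-type Cyria values were still not shown to be above background, so the Cyria differences between lines give no fold in transcript.

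The factors Was (WASP) and Wasf2 (WAVE2), which activate the Arp2/3 complex, and Wipf1, which stabilises WASP, did not pass between the lines. Was differed by 0.17 ± 0.12 (SE) with beads, or 0.06 with wild-type bead array 3 left out, and by 0.19 ± 0.12 (SE) without beads. Wasf2 differed by 0.30 ± 0.12 (SE) with beads and by 0.16 ± 0.12 (SE) without. Wipf1 read 9.67 and 9.92 in TLR9KO macrophages with beads, against 9.41, 9.27 and 8.52 in wild-type macrophages with beads. The TLR9KO arrays were the higher ones, and the difference of 0.73 ± 0.23 (SE) did not pass (adjusted p = 0.111). It was 0.46 without wild-type bead array 3 and then passed (adjusted p = 0.0191), as did the difference of 0.48 without beads (adjusted p = 0.0106).

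Vasp was the one called among formins and Ena/VASP proteins, and it encodes a protein that speeds filament elongation. It read 9.12 and 8.96 in TLR9KO macrophages with beads, against 8.21, 8.24 and 8.70 in wild-type macrophages with beads. In unstimulated macrophages it read 8.84 and 8.97 with TLR9KO, against 8.37, 8.40 and 8.27 in wild type. All TLR9KO arrays lay above all wild-type arrays. With beads the difference was 0.65 ± 0.15 (SE, adjusted p = 0.0298), and without beads it was 0.56 ± 0.15 (SE) and did not pass (adjusted p = 0.0543). Leaving out any array other than wild-type bead array 3 ended the call with beads (adjusted p 0.0521 to 0.247), and without wild-type bead array 3 the difference without beads passed as well (adjusted p = 0.0011).

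Evl, a relative of Vasp, read 8.34 and 8.23 in TLR9KO macrophages with beads, against 7.17, 7.21 and 8.14 in wild-type macrophages with beads. In unstimulated macrophages it read 8.35 and 8.42 with TLR9KO, against 7.72, 7.10 and 7.59 in wild type. Wild-type bead array 3 was near the TLR9KO arrays, and the other wild-type arrays were lower. The differences of 0.78 ± 0.28 (SE) with beads and 0.91 ± 0.28 (SE) without did not pass (adjusted p = 0.175 and 0.0936), but both passed without that array (adjusted p = 0.0011 and 0.00182). The wild-type Evl values of 7.17, 7.21 and 7.10 lie in the range of markers of other cell types, 3.81 to 7.54. They were not shown to be above background, so the Evl differences give no fold in transcript. The leukocyte formin Fmnl1 differed by 0.73 ± 0.25 (SE) with beads and by 0.72 ± 0.25 (SE) without, and neither passed. When wild-type bead array 3 was left out, the Fmnl1 difference was 0.48 with beads (adjusted p = 0.0706), and the one without beads passed (adjusted p = 0.00782). Diaph1, another formin, differed by 0.02 ± 0.13 (SE) with beads, or -0.08 with that array left out, and by -0.004 ± 0.13 (SE) without.

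Carmil1 gave the widest difference of any member between the lines with beads. It encodes a protein that binds capping protein and weakens its hold on filament ends. Carmil1 read 7.69 and 7.70 in TLR9KO macrophages with beads, against 5.93, 5.87 and 6.02 in wild-type macrophages with beads. In unstimulated macrophages it read 6.83 and 6.99 with TLR9KO, against 6.003, 5.75 and 5.78 in wild type. The 3 groups other than TLR9KO with beads were lower. Both wild-type groups lay near the median of all probe sets on their arrays, which ran between 5.75 and 6.10. The difference was 1.75 ± 0.11 with beads (SE, adjusted p = 1.59e-05) and 1.06 ± 0.11 without (SE, adjusted p = 0.000305). The wild-type values and the unstimulated TLR9KO values lie in the range of the 35 markers of other cell types, 3.81 to 7.54. They were not shown to be above background, so these differences give no fold in transcript. Both calls held under all 19 alternatives tried.

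Other turnover proteins differed less. Coro1a, a coronin of blood cells that binds Arp2/3, read 9.65 and 9.63 in unstimulated TLR9KO macrophages, against 8.85, 8.86 and 8.77 in unstimulated wild-type macrophages. The arrays did not overlap, yet the difference of 0.81 ± 0.22 (SE) did not pass (adjusted p = 0.0579). With beads Coro1a read 9.43 and 9.52 in TLR9KO macrophages, against 9.01, 9.10 and 8.22 in wild-type macrophages, a difference of 0.70 ± 0.22 (SE, adjusted p = 0.116). Without wild-type bead array 3, Coro1a differed by 0.42 with beads and passed in both comparisons (adjusted p = 0.00569 with beads and 4.12e-05 without), and without wild-type bead array 2 it passed in unstimulated macrophages (adjusted p = 0.0458).

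The related Coro1c differed by -0.21 ± 0.17 (SE) with beads, and by -0.39 without wild-type bead array 3, where it passed (adjusted p = 0.0213). Pfn1 (profilin, which feeds monomers to filament ends) and Cfl1 (cofilin, which severs filaments) differed by 0.14 ± 0.20 (SE) and 0.03 ± 0.09 (SE) with beads. Gsn (gelsolin, which severs and caps) and Capg (which caps) differed by 0.18 ± 0.10 (SE) and 0.27 ± 0.10 (SE) with beads. With wild-type bead array 3 left out, the bead values were -0.07 for Pfn1, -0.005 for Cfl1 and 0.11 for Gsn. None of these 4 genes passed in either comparison between lines.

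**Figure D3:**
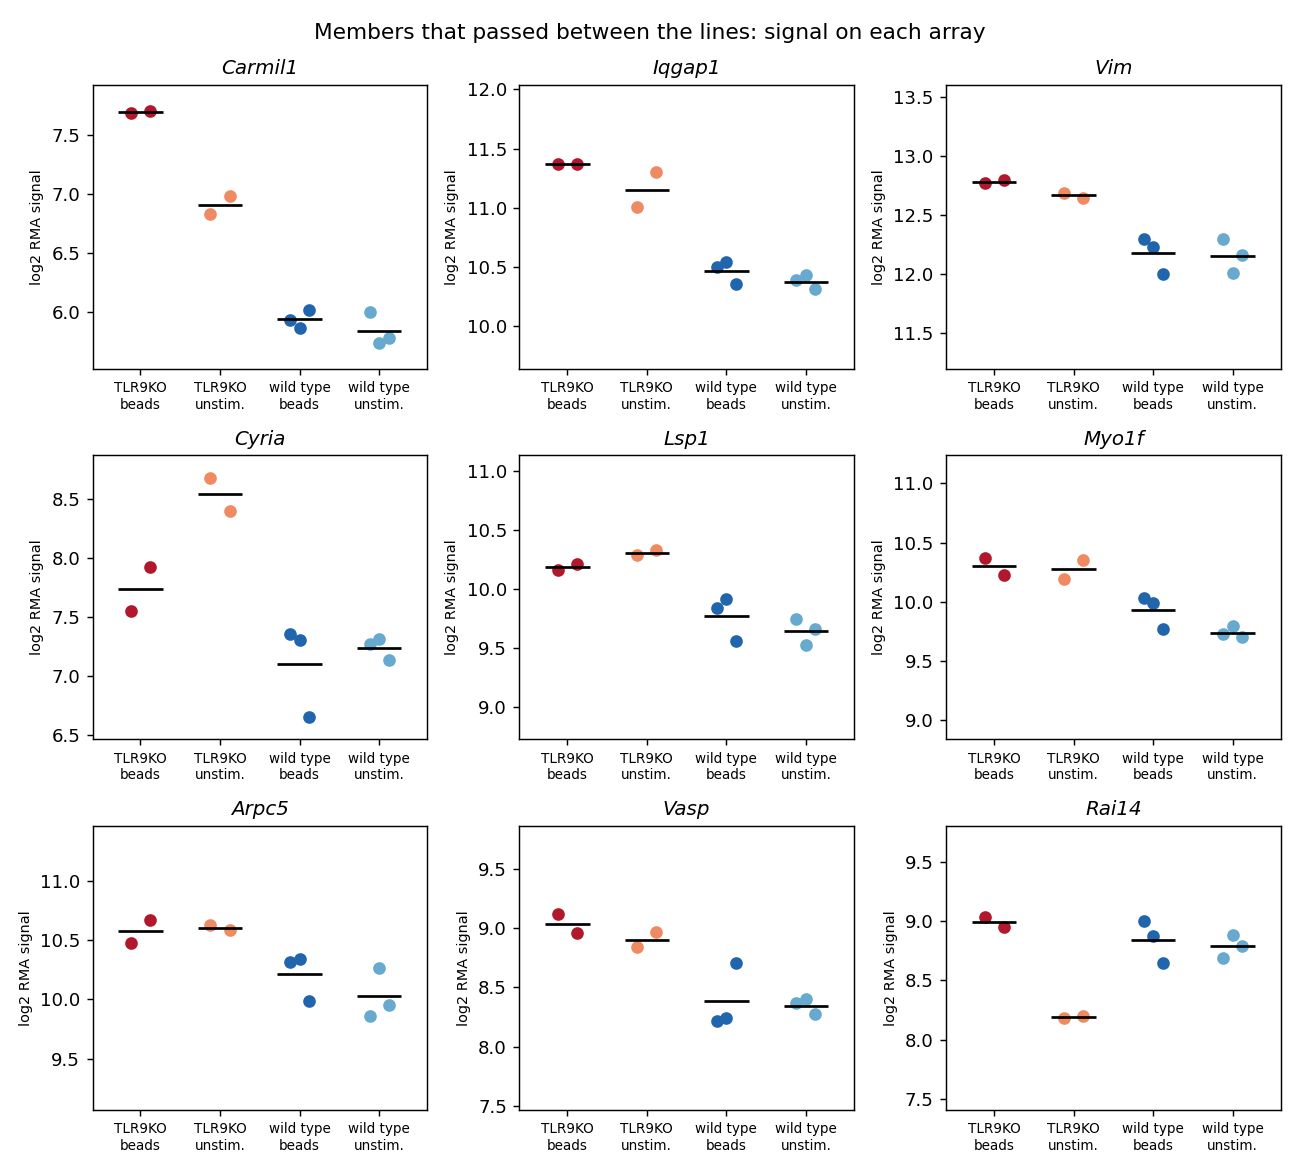
Log2 signal on each array for the 9 members called between the lines, 1 panel per gene, with the 4 groups ordered as TLR9KO with beads, TLR9KO unstimulated, wild type with beads and wild type unstimulated; points are arrays, bars are group means and every panel spans the same height. Carmil1, Iqgap1 and Vim sit higher in both TLR9KO groups, and Rai14 is lowest in unstimulated TLR9KO macrophages.

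Iqgap1 was called in both comparisons, and it encodes a scaffold that binds Rac1, Cdc42 and filaments. It read 11.37 and 11.37 in TLR9KO macrophages with beads, against 10.50, 10.54 and 10.36 in wild-type macrophages with beads. In unstimulated macrophages it read 11.00 and 11.30 with TLR9KO, against 10.39, 10.43 and 10.31 in wild type. Every TLR9KO array lay above every wild-type array. The difference was 0.90 ± 0.11 with beads (SE, adjusted p = 0.00103) and 0.78 ± 0.11 without (SE, adjusted p = 0.00236). The call with beads held under all 19 alternatives, and the call without beads was lost when arrays were centred on their medians (adjusted p = 0.053).

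Lsp1, a leukocyte protein that binds filaments and localises to phagocytic cups, read 10.29 and 10.33 in unstimulated TLR9KO macrophages, against 9.75, 9.53 and 9.66 in unstimulated wild-type macrophages. With beads it read 10.16 and 10.21 in TLR9KO macrophages, against 9.84, 9.92 and 9.56 in wild-type macrophages. All TLR9KO arrays were the higher ones. The difference was 0.66 ± 0.12 without beads (SE, adjusted p = 0.00953) and 0.41 ± 0.12 with beads, which did not pass (SE, adjusted p = 0.0857). Without unstimulated TLR9KO array 1 or 2 the call was lost (adjusted p 0.073 to 0.0904), and without wild-type bead array 3 the difference with beads was 0.31 and passed (adjusted p = 0.0407).

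Rai14, an ankyrin-repeat protein found with actin, was the one member called lower. It read 8.18 and 8.20 in unstimulated TLR9KO macrophages, against 8.69, 8.88 and 8.79 in unstimulated wild-type macrophages. With beads it read 9.03 and 8.95 in TLR9KO macrophages, against 9.00, 8.88 and 8.65 in wild-type macrophages. The unstimulated TLR9KO arrays were the lowest of all 10, and with beads the lines overlapped. The difference was -0.60 ± 0.12 without beads (SE, adjusted p = 0.0134) and 0.15 ± 0.12 with beads (SE, adjusted p = 0.776), or 0.05 with wild-type bead array 3 left out. The call was lost when unstimulated TLR9KO array 1 or 2, or unstimulated wild-type array 2 or 3, was left out (adjusted p 0.0535 to 0.112). Lcp1 (L-plastin, which bundles filaments) differed by 0.04 ± 0.08 (SE) with beads, or 0.01 with that array left out, and by 0.11 ± 0.08 (SE) without beads, and none of these passed.

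Myo1f was the one called among membrane linkers and class I myosins, the motors that join filaments to the membrane of the cup. It read 10.19 and 10.36 in unstimulated TLR9KO macrophages, against 9.72, 9.79 and 9.70 in unstimulated wild-type macrophages. With beads it read 10.37 and 10.23 in TLR9KO macrophages, against 10.03, 9.99 and 9.77 in wild-type macrophages. The TLR9KO arrays lay above in both comparisons. The difference was 0.54 ± 0.11 without beads (SE, adjusted p = 0.0163) and 0.37 ± 0.11 with beads (SE, adjusted p = 0.0889). The call was lost without unstimulated TLR9KO array 1 or 2, or unstimulated wild-type array 1 or 3 (adjusted p 0.0624 to 0.175). Myo1e, its long-tailed relative, differed by 0.23 ± 0.26 (SE) with beads and by 0.06 ± 0.26 (SE) without. The linkers Msn (moesin) and Ezr (ezrin) differed by 0.005 ± 0.14 (SE) and 0.06 ± 0.11 (SE) with beads, and neither passed in either comparison. With wild-type bead array 3 left out, the differences with beads turned to -0.09 for Myo1e, -0.13 for Msn and -0.02 for Ezr, and none passed.

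Vim, the intermediate filament protein vimentin, was called in both comparisons. It read 12.77 and 12.80 in TLR9KO macrophages with beads, against 12.30, 12.23 and 12.00 in wild-type macrophages with beads. In unstimulated macrophages it read 12.69 and 12.65 with TLR9KO, against 12.30, 12.01 and 12.16 in wild type. All TLR9KO arrays lay above all wild-type arrays. The difference was 0.60 ± 0.12 with beads (SE, adjusted p = 0.0139) and 0.51 ± 0.12 without (SE, adjusted p = 0.0277). The call with beads was lost without TLR9KO bead array 1 or 2 (adjusted p 0.0975 to 0.127). The call without beads was lost without any TLR9KO array, or without unstimulated wild-type array 2 or 3 (adjusted p 0.0524 to 0.189).

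The adhesion linkers Tln1 (talin, which activates integrins) and Vcl (vinculin, which binds talin and filaments) did not pass. Tln1 differed by 0.24 ± 0.16 (SE) with beads and by 0.13 ± 0.16 (SE) without. Vcl read 8.30 and 8.52 in TLR9KO macrophages with beads, against 8.06, 8.01 and 7.41 in wild-type macrophages with beads. The TLR9KO arrays were higher, and the difference of 0.58 ± 0.18 (SE) did not pass (adjusted p = 0.1). It was 0.37 and passed without wild-type bead array 3 (adjusted p = 0.0158).

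The beads were compared with no stimulation within each line, which addresses how each line's actin genes respond to the particle over 4 h. These comparisons use the same arrays as those between lines. Limma called 0 of 39 members in TLR9KO macrophages and 0 of 39 in wild-type macrophages, where 0% of all genes were called in each. At an unadjusted p under 0.05 there were 4 members and 359 genes in TLR9KO macrophages, and 0 members and 167 genes in wild-type macrophages. The median bead difference over the members was 0.04 in TLR9KO macrophages (0.004 over all genes) and 0.03 in wild-type macrophages (0.01 over all genes). The bead arrays lay wholly above the unstimulated ones for 7 members and wholly below for 7 in TLR9KO macrophages, where 13.2% and 11.2% of all genes did so. In wild-type macrophages this held for 1 above (Lcp1) and 1 below (Actr3), where 2.29% and 1.24% of all genes did so.

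The 4 members under the unadjusted p in TLR9KO macrophages were Rai14, Carmil1, Cyria and Ezr. From the array values above, Rai14 and Carmil1 were higher on both TLR9KO bead arrays and Cyria was lower on both. In TLR9KO macrophages the bead difference was 0.80 ± 0.13 for Rai14 (SE, adjusted p = 0.514), 0.79 ± 0.12 for Carmil1 (SE, adjusted p = 0.514) and -0.80 ± 0.23 for Cyria (SE, adjusted p = 1). The Carmil1 difference starts from unstimulated values in the range of markers of other cell types, so it gives no fold in transcript. Ezr read 9.20 and 9.22 in TLR9KO macrophages with beads, against 8.90 and 8.91 in unstimulated TLR9KO macrophages. Its bead arrays lay above, with a difference of 0.30 ± 0.12 (SE, adjusted p = 1). Without wild-type bead array 3, which enters through the shared estimate of spread, limma called Rai14 and Carmil1 higher in TLR9KO macrophages with beads (adjusted p = 0.0345 and 0.0357), where 0.0853% of all genes were called.

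In wild-type macrophages the beads shifted the same 3 genes by 0.05 ± 0.11 for Rai14, 0.10 ± 0.10 for Carmil1 and -0.14 ± 0.19 for Cyria (SE). With bead array 3 left out these were 0.15 for Rai14, 0.06 for Carmil1 and 0.09 for Cyria, and none passed. The test of the difference between the 2 bead responses called none of the 39 members and 0% of all genes, with 2 members and 172 genes at an unadjusted p under 0.05. The response of TLR9KO macrophages minus that of wild type was 0.75 ± 0.17 for Rai14, 0.69 ± 0.15 for Carmil1 and -0.67 ± 0.30 for Cyria (SE, adjusted p = 1 for each). For Carmil1 and Cyria it rests on wild-type values not shown to be above background, so it gives no fold in transcript. The adjusted p was 0.424 for both Rai14 and Carmil1 without wild-type bead array 3, where 0 members and 0.00502% of all genes were called.

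The intervals show what size of bead response could have gone unseen. In TLR9KO macrophages the 95% interval lay within a ratio of 2 either way for 35 of 39 members, the others being Carmil1, Cyria, Rai14 and Rhog. In wild-type macrophages it did so for all 39, with the lowest bound at -0.70 (Rhog) and the highest at 0.75 (Arpc4). For the difference between the responses it did so for 34 members. Wild-type values of Carmil1, Cyria and, on some arrays, Evl were not shown to be above background. For these genes the wild-type interval sets no bound on a transcript response. In wild-type macrophages 22 of the 39 members had a bead difference above 0, as did 11232 of all 19938 genes. Without bead array 3 these were 33 members and 9286 genes, with a median of 0.14 over the members against -0.01 over all genes. Against the unstimulated wild-type mean, the members had medians of 0.14 and 0.12 on wild-type bead arrays 1 and 2. Other genes of like signal also lay above that mean, with medians of 0.10 and 0.07 on these arrays.

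**Figure D4:**
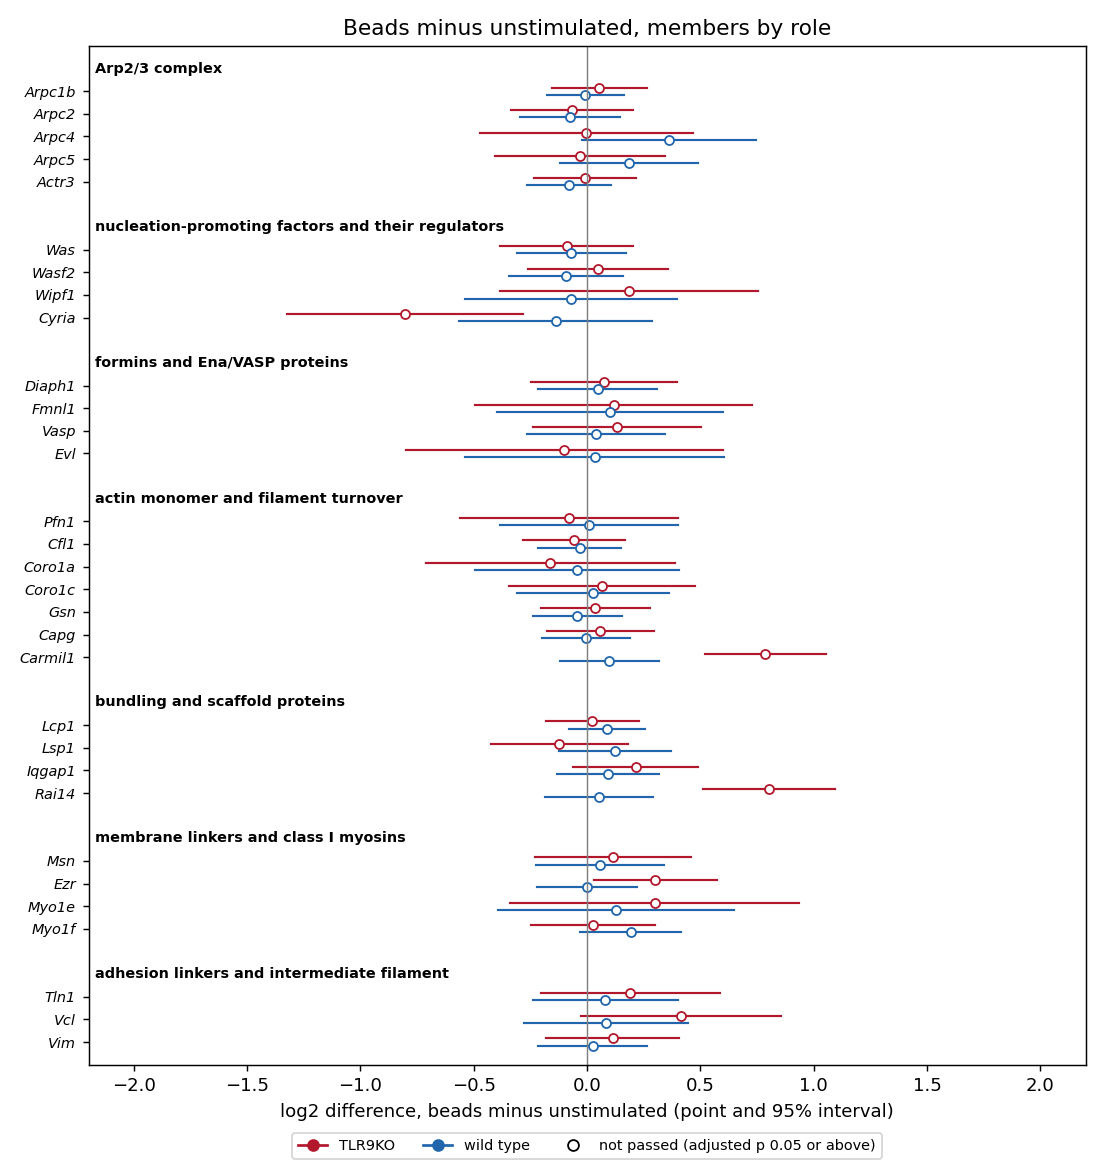
Difference in log2 signal, beads minus unstimulated, for the members described by role, in TLR9KO macrophages (red) and wild-type macrophages (blue); points are estimates, bars are 95% intervals, and no point passed the adjusted p of 0.05. Rai14 and Carmil1 lie near 0.8 and Cyria near -0.8 in TLR9KO macrophages, and the wild-type points lie between -0.14 and 0.36.

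Other genes of the same pathways gave calls in both directions between the lines. Of 187 such genes, 179 were measured. Limma called 31 higher and 9 lower in TLR9KO macrophages with beads, and 27 higher and 10 lower without beads, where 7.22% and 8.25% of all genes were called. With beads these included 4 higher and 2 lower of 27 actin and nucleation genes, 10 and 2 of 48 turnover, bundling and motor genes, 7 and 0 of 25 adhesion linkers, and 6 and 3 of 41 genes of cup signalling and maturation. Without beads they included 3 and 2, 8 and 3, 6 and 0, and 6 and 2 in the same order. Limma called 0 of the 179 for beads within either line, with 12 at an unadjusted p under 0.05 in TLR9KO macrophages and 2 in wild-type macrophages. When wild-type bead array 3 was left out, 37 were called higher and 33 lower with beads, and 48 higher and 24 lower without, where 20.9% and 18.4% of all genes were called.

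Genes that act beside called members were among them. Nckap1l, the WAVE-complex subunit of blood cells, read 11.38 and 11.30 in TLR9KO macrophages with beads, against 10.36, 10.23 and 10.16 in wild-type macrophages with beads. All TLR9KO arrays were higher, by 1.09 ± 0.10 with beads (SE, adjusted p = 0.000225) and 0.80 ± 0.10 without (SE, adjusted p = 0.00138). Cyfip2, another WAVE-complex subunit, differed the other way, by -1.32 ± 0.16 with beads (SE, adjusted p = 0.000913) and -1.25 ± 0.16 without (SE, adjusted p = 0.00126). The Rac activator Tiam1 was higher by 1.76 ± 0.10 with beads and 1.31 ± 0.10 without, and Limk1, the kinase that inactivates cofilin, was lower, at -1.002 ± 0.15 and -1.18 ± 0.15 (SE). Myo10, an unconventional myosin of filopodia, was higher by 2.06 ± 0.15 with beads and 1.59 ± 0.15 without (SE).

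The filament-binding substrates of protein kinase C split, with Marcksl1 higher by 2.77 ± 0.40 with beads and 2.83 ± 0.40 without, and Marcks at -2.67 ± 0.24 and -2.50 ± 0.24 (SE). Marcks read 4.80 and 4.46 in TLR9KO macrophages with beads and 4.93 and 4.96 in unstimulated TLR9KO macrophages, against 6.79 to 7.73 in wild-type macrophages. Among adhesion genes, the integrin subunit Itgav was higher by 1.60 ± 0.12 with beads and 0.97 ± 0.12 without, and Pdlim5, a filament-associated LIM protein, by 1.69 ± 0.15 and 1.70 ± 0.15 (SE). Among phagocytic receptors, Fcgr1, the high-affinity receptor for antibody, was higher by 0.88 ± 0.15 with beads and 1.14 ± 0.15 without. Its call with beads was lost without TLR9KO bead array 2 (adjusted p = 0.0871). The mannose receptor Mrc1 was lower, at -3.78 ± 0.20 with beads and -3.50 ± 0.20 without, and Mertk, which takes up dying cells, was lower at -1.94 ± 0.21 and -1.50 ± 0.21 (SE). All of these differences, from Nckap1l to Mertk, passed limma's test. In the line where they were lower, Tiam1, Marcksl1, Marcks, Mrc1 and Mertk read 6.54 or less on every array, in the range of markers of other cell types, so the sizes of their differences give no fold in transcript.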

How the data were processed

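The deposited table held log2 signals of 28853 probe sets on 10 arrays, which the authors obtained with RMA, per the submitters' processing notes. The RMA version, annotation and set of arrays normalised together were not given in the sources used here. One gene symbol was annotated for 21789 probe sets, several for 1621 and none named for 5443. Of the first, 21698 were matched by Entrez ID and took the current symbol, whether or not it had changed. The others kept their symbol, giving 19938 genes, 999 of them with several probe sets. No gene was removed for low signal.

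A model with 4 group means was fitted with limma 3.58.1 in R 4.3.3 (lmFit, then eBayes without trend and not robust; 6 residual and 3.23 prior degrees of freedom). Tests were two-sided, and the procedure was tested on simulated data. The number of arrays limits the precision. Array numbers in the titles, of unstated meaning, are lower for all TLR9KO arrays, so any order they mark and the line cannot be told apart.

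Members are reported by role, in full where limma called them. Pathway genes named come, per list, from the up to 4 with the smallest adjusted p between the lines without beads and the 2 with the smallest in another comparison, and not all of these are printed. One group of members and of pathway genes is counted in the totals and is not reported here. Members and lists were chosen with earlier results of these data known. Alternatives were other scalings, eBayes settings, array weights, a filter on dim genes, averaged probe sets, the compared groups alone, and leaving out each array.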

Additional observations from a re-analysis of the deposited data

How the results depend on the processing

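No paired analysis was possible because no replicate number in the labels is shared between groups. With 2 or 3 arrays a group, the counts of called members moved with the processing. Without beads, the 8 members called between the lines became 20 with array weights, 13 with the compared groups alone and 2 (both higher) with arrays centred on the median, and 2 to 15 when single arrays were left out. With beads, the 4 became 18 with array weights, 10 with the table quantile normalised, 7 with centring on the 75th percentile and 2 with the compared groups alone, and 2 to 12 when single arrays were left out. For beads within TLR9KO macrophages the 0 became 2 with array weights, and 0 to 2 when single arrays were left out. For beads within wild-type macrophages the 0 became 18 with array weights. Among the bead differences in wild-type macrophages, these then turned their sign and passed: Rhog at 0.32 (-0.01 without weights), Coro1a at 0.30 (-0.05) and Evl at -0.37 (0.03). The estimation of the weights stopped before it converged, with weights between 0.07 for wild-type bead array 3 and 12.1 for wild-type bead array 2, so these counts rest mostly on few arrays. Of the 12 member calls between the lines, 3 held under all 19 alternatives: Carmil1 with and without beads and Iqgap1 with beads. Of 183 member values that did not pass, 44 passed under at least 1 alternative with their sign kept. Rhog, Coro1a and Evl, which passed with the sign turned, are not in that count. No such count was made over all genes. Over all genes, the 1645 calls without beads became 4451 with array weights, 3262 with the compared groups alone, 2483 with the table quantile normalised, 756 with median centring and 681 to 3668 when single arrays were left out. The 1439 with beads became 6083, 480, 2263, 704 and 597 to 4171 in the same order. With centring on the 75th percentile, 1483 genes (7.44%) were called with beads. For beads the 0 genes became 16 in TLR9KO (0 to 17 when single arrays were left out) and 9174 in wild-type macrophages with array weights, and 9 for the difference between responses. The cause of these changes was not tested.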

Other observations

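Pdlim7, Itgav and Itga5, pathway genes not called for beads with all arrays, were chosen after their values were seen. Pdlim7, a LIM protein of filaments, read 8.32 and 8.68 in TLR9KO macrophages with beads, against 7.80 and 7.55 in unstimulated TLR9KO macrophages. In wild-type macrophages it read 8.11, 8.33 and 7.64 with beads, against 7.70, 7.32 and 7.54 without. The bead arrays lay above in TLR9KO macrophages and overlapped the unstimulated ones in wild-type macrophages, with bead differences of 0.83 ± 0.23 in TLR9KO and 0.51 ± 0.19 in wild type (SE, limma adjusted p = 1 for both). With wild-type bead array 3 left out, the wild-type difference was 0.70 (limma adjusted p = 0.223). Itgav read 11.04 and 11.10 in TLR9KO macrophages with beads, against 10.30 and 10.48 in unstimulated TLR9KO macrophages, a difference of 0.68 ± 0.13 (SE, limma adjusted p = 0.673). In wild-type macrophages its bead difference was 0.05 ± 0.10 (SE), or 0.11 with bead array 3 left out. Without wild-type bead array 3, the fibronectin receptor subunit Itga5 was the one other pathway gene that limma called for beads in TLR9KO macrophages, at 0.80 ± 0.12 (SE, adjusted p = 0.0497). With all arrays Itga5 did not pass, and the smallest limma adjusted p among the 25 adhesion linkers was 0.673.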
